A study of Mus musculus with 2 samples.

Results

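β cells from mice fed a high-fat diet (HFD) were divided by the transcripts of Ddit3 and Trib3, a pair of genes induced when cells are stressed. A unique molecular identifier (UMI) tags 1 captured transcript. HFD barcodes had to have 500 genes or more, no more than 20% mitochondrial UMIs, and between 8000 and 20000 UMIs. Ins1 and Ins2 together made up at least 40% of their UMIs, each of the other islet hormone genes Gcg, Sst, Ppy and Pyy stayed under 1%, and cells with any UMI of Aldh1a3 were left out. These gates left 3427 of 8951 HFD barcodes, among 12846 barcodes in the series. Of the 3427 gated β cells, 2012 held 2 or more UMIs of Ddit3 plus Trib3 (58.7%, exact Clopper-Pearson 95% interval 57.0 to 60.4) and are called Ddit3/Trib3 cells here. A further 848 cells (24.7%) held 1 such UMI, and 567 cells (16.5%, 15.3 to 17.8) held none and were the comparison. The UMIs of these 2 genes chose the cells, so their own levels are given as a description.

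The study asked how obesity changes β cells, using islets of male C57/B6 mice that were 16 weeks old. From an age of 6 weeks the HFD mice ate food with 60% of its energy as fat, for 10 weeks, and the labels name no diet for the wild-type (WT) mice. Islets of 4 mice were pooled in each of 2 libraries, made with the droplet chemistry of 10x Genomics that reads the 3-prime end of transcripts. Each group is thus 1 library, which allows no test between groups, and p-values are not given. Cells of a library are not replicates and cannot be assigned to a mouse, so diet, islet preparation and library cannot be told apart, and every interval covers counting error alone.

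The integrated stress response is started by kinases that phosphorylate the translation factor eIF2α, among them PERK (Eif2ak3) at the endoplasmic reticulum (ER) and GCN2 (Eif2ak4) during amino acid shortage. Translation then slows in general while the transcription factor ATF4 is made, and ATF4 with its partners switches on Ddit3 (CHOP, a transcription factor linked to cell death under lasting ER stress), Trib3 (a pseudokinase that restrains ATF4 and AKT), amino acid synthesis and transport, and the charging of tRNAs. The ER has further branches through ATF6 and IRE1, which raise chaperones such as BiP (Hspa5) and the machinery that retrieves misfolded proteins for degradation (ERAD). β cells fold large amounts of proinsulin in the ER, and these pathways are well known in them.

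Start regions are shown for Ddit3 and Trib3, which defined the cells, and for 3 ER genes described below that were higher in them. RefSeq windows of 300 bases (250 before to 50 after the start, mouse build GRCm38.p6) were searched on both strands for 2 motifs, and capitals mark a match. The C/EBP-ATF response element core TGATGNAA was in 3.97% of 32851 windows, and the ER stress response element (CCAAT and CCACG with 9 bases between) was in 0.119%. For Trib3 the 30 bases around its match are given, and for the others the 250 bases before the start.
Ddit3 (chr10:127290543-127290792, + strand): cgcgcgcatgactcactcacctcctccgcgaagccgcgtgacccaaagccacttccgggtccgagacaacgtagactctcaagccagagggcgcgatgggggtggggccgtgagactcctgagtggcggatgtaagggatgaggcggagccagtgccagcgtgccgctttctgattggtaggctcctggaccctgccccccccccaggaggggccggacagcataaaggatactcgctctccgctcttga
Trib3 (chr2:152344028-152344057, - strand): ttagctcaggtTTACATCAgccgggcgggg
Herpud1 (chr8:94386179-94386428, + strand): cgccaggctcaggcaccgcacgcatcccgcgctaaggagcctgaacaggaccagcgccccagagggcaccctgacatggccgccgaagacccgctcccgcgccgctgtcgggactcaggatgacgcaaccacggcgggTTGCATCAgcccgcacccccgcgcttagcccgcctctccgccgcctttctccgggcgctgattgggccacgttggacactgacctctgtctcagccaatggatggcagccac
Syvn1 (chr19:6046326-6046575, + strand): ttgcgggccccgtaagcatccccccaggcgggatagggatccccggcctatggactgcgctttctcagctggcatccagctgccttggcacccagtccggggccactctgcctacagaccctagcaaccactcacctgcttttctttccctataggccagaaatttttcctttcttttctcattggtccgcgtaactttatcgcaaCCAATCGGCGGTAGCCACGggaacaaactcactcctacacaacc
Hspa5 (chr2:34771840-34772089, + strand): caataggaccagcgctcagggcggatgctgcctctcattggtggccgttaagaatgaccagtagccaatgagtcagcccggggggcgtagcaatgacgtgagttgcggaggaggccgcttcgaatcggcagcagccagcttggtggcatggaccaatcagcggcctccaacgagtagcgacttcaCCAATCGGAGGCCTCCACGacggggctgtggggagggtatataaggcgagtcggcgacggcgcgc

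Trib3 had a TGATGNAA match at position 15 after its start, Herpud1 had one at -112, and the ER stress response element began at -44 in Syvn1 and -65 in Hspa5. No exact match to either motif was in the Ddit3 window. Near matches and bases outside the window were not searched, so this does not show that Ddit3 lacks such elements. Among genes with a window, TGATGNAA was found in 6 of 19 regulators of the integrated stress response (Atf3, Nupr1, Chac1, Fgf21, Vldlr and Jdp2), 6 of 19 genes of amino acid supply and 5 of 13 genes of tRNA charging. A gene with several windows counted if any of them matched, while the background shares are of single windows. The ER stress response element was found in 7 of 21 genes of ER folding and 2 of 21 of ERAD and translocation. Neither motif was in windows of β identity genes (18), secretory granule genes (16) or immediate early genes (13). Genes on chromosome 18 were left out of all these list counts, and Egr1 was not among the immediate early genes counted. A match is a run of letters and not evidence that a factor binds there.

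Ddit3 (ENSMUSG00000025408, chr10:127290774-127296288 on the + strand of mm10) had 7391 UMIs in the gated HFD cells, or 169 CPM (UMIs of a gene scaled to a total of 1000000, with an exact Poisson 95% interval of 165 to 173). Trib3 (ENSMUSG00000032715, chr2:152337422-152344032 on the - strand) had 1074 UMIs, or 24.6 CPM (23.1 to 26.1). Per cell, Ddit3 ranged from 0 to 27 UMIs with a median of 2, and Trib3 from 0 to 5 with a median of 0. Most Ddit3/Trib3 cells were therefore chosen by Ddit3. Ddit3 without Trib3 was held by 1292 of the 2012 cells (64.2%), Trib3 without Ddit3 by 37 (1.84%) and both by 683 (33.9%), while 98 (4.87%) had 2 or more UMIs of each.

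Ddit3 was spread over the cells more unevenly than most genes of its level. With each cell thinned to 8000 UMIs, the variance of Ddit3 was 1.86 times its mean. Among 275 genes with a mean within 1.5-fold, the median of this ratio was 1.07 and the 5th to 95th percentiles were 0.991 to 1.59, and 11 genes exceeded Ddit3. Trib3, at 1.05, lay within the 0.970 to 1.09 of 2106 genes of its level. A ratio of 1 is what counting error alone gives.

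The threshold of 2 UMIs had no gap on either side. The 695 cells with exactly 2 UMIs had a median of 12159 UMIs and 2061 genes, with 449 CPM of Herpud1, 870 of Hspa5 and 196 of Atf4. The 848 cells with 1 UMI had 11510 UMIs and 1963 genes, with 414, 801 and 185 CPM of the same genes.

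Because a deeper cell shows more UMIs of every gene, the share of Ddit3/Trib3 cells was read within bands of 2000 UMIs. It went from 45.7% at 8000 to 10000 UMIs through 54.9%, 60.5%, 65.9% and 72.8% to 72.8% (67.3 to 77.9) at 18000 to 20000. The same gates left 312 WT cells, and 148 of these had 2 or more UMIs (47.4%, 41.8 to 53.1). WT cells were deeper, and at their mix of bands the HFD share was 67.6%. The HFD share exceeded the WT share in all 6 bands, although the lowest bands held 20 and 14 WT cells. Ddit3 was at 109 CPM (100 to 119) and Trib3 at 12.6 CPM (9.68 to 16.1) in gated WT cells, both below the HFD intervals. These are levels of 1 library each, and the difference between libraries was not tested.

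**Figure D1:**
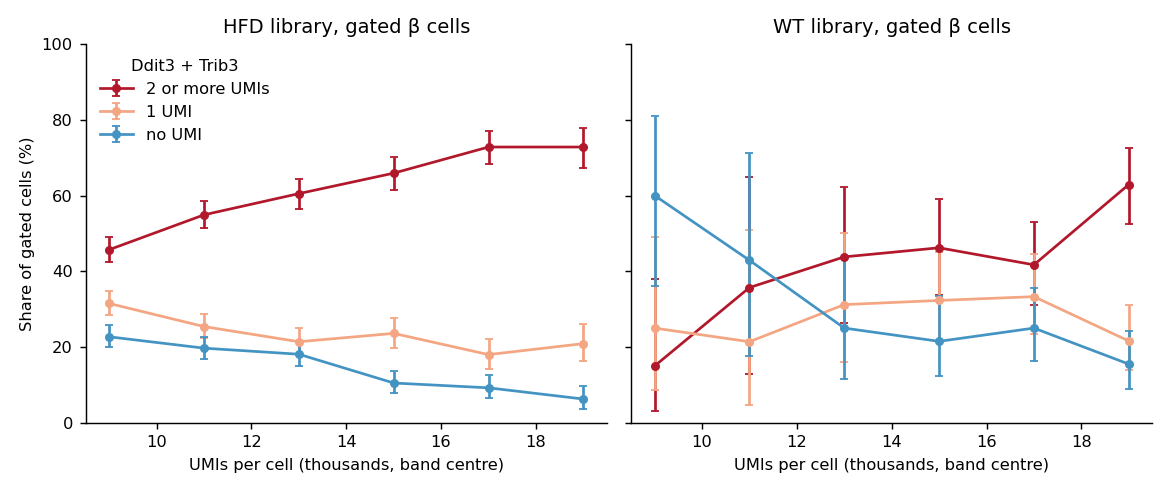
Share of gated β cells (percent, vertical axis) with 2 or more, 1 or no UMI of Ddit3 plus Trib3 in bands of 2000 UMIs per cell (horizontal axis, in units of 1000 UMIs, at band centres), for the HFD library (left) and the WT library (right), with exact Clopper-Pearson 95% intervals. The HFD share with 2 or more UMIs rises from 45.7% to 72.8%, and the WT intervals are wide because the bands hold 14 to 97 cells.

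Neither gene is particular to β cells. Endothelial-like cells of the HFD library, with UMIs of at least 4 of 7 endothelial markers and insulin under 20% of UMIs, had 232 CPM of Ddit3 plus Trib3 (194 to 275; 155 cells, median 3271 UMIs), against 194 CPM (189 to 198) in gated β cells (median 12198 UMIs). With each cell thinned to 2000 UMIs, 36.6% of 112 endothelial-like cells (27.7 to 46.2) and 30% of the β cells (28.4 to 31.5) had at least 1 UMI. The shares with 2 or more were 6.25% and 6.36%, against 18.7% and 58.7% before thinning. At 2000 UMIs of all genes the shares thus did not set β cells apart from endothelial-like cells. Both the CPM and the thinning count insulin, which made up 57.6% of β cell UMIs and left fewer UMIs for other genes. Levels among UMIs other than insulin were not compared between the 2 cell types. Insulin made up 1.51% of endothelial-like UMIs, and β cell RNA at that amount would have carried 5.08 CPM of Ddit3 plus Trib3. Trib3 was 33.3% of the pair's UMIs in endothelial-like cells and 12.7% in β cells.

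Ddit3/Trib3 cells had an insulin share about 1 percentage point below that of cells with none, under gates requiring at least 40% in both. Their median insulin share was 57.5% of UMIs (lowest 40.7%, highest 68.2%) against 58.4% (40.4% to 67.9%), ranges that overlapped almost wholly. Their median mitochondrial share was 3.36% against 3.3%. They were deeper: the median Ddit3/Trib3 cell had 12870 UMIs and 2191 genes, and the median cell with none 11097 and 1907. All later ratios were therefore matched within the 6 bands (Mantel-Haenszel ratio of UMIs per total UMIs other than Ddit3 and Trib3, with its counting 95% interval). The fewest cells with none in a band were 18, at 18000 to 20000 UMIs.

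Summed over each group, markers of other cell types were low, and the gates had limited Gcg, Sst, Ppy and Pyy. All 10 β markers were present, summing to 635398 CPM in Ddit3/Trib3 cells and 645394 CPM in cells with none. That sum includes Ins1 and Ins2, which the gates required in both groups. The summed α markers were at 1586 and 1652 CPM, with Pou3f4 at 0, acinar markers at 636 and 606 CPM, macrophage markers at 56.9 and 55.6 CPM, and ductal markers at 88.4 and 86.5 CPM. The δ cell markers were at 116 and 98.6 CPM, although the matched ratio of Sst was below 1 (0.814, 0.743 to 0.893). Single cells could hold far more: the highest acinar sum was 119656 CPM in a Ddit3/Trib3 cell and 16249 CPM in a cell with none. Fibroblast markers were at 2.54 and 6.96 CPM, with Col1a1, Col3a1, Pdgfra and Lum at 0, and Schwann cell, T cell and B cell markers were under 10 CPM in both. Endothelial markers were higher in Ddit3/Trib3 cells (13.9 against 6.80 CPM) and so were γ cell markers (226 against 150 CPM), among them Ppy (1.27, 1.14 to 1.41) and Pyy (1.39, 1.24 to 1.55). In gated WT cells the same ratios were 0.291 (0.229 to 0.37) for Ppy and 0.926 (0.711 to 1.21) for Pyy. Barcodes with the highest doublet scores made up 9.49% of Ddit3/Trib3 cells and 5.82% of cells with none, and without them 167 genes were higher and 11 lower by the measure used next, in place of 164 and 12. The part of the other cell types in the results was not tested.

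Few genes differed between the groups beyond a modest fold. Among 4085 genes with at least 500 UMIs over both groups, 164 (4.01%) were at least 25% higher by the matched ratio and are called higher, and 12 (0.294%) were at least 20% lower and are called lower. The counting interval excluded 1 for 160 of the higher genes and all 12 lower ones, and 68 and 4 lay on the same side of 1 in all 6 bands. The median over all genes was 1.05, or 0.07 on the log2 scale, while the most deeply counted genes Iapp (0.951, 0.947 to 0.954), Ins1 (0.974) and Ins2 (0.987) were a little below 1. That median was 0.03 with insulin and mitochondrial genes left out of the scale. With the scale set to the median gene the split of calls was 73 higher and 40 lower, and without insulin and mitochondrial genes in the scale 108 and 24. One high ratio came from a couple of barcodes: of 926 UMIs of the haemoglobin gene Hbb-bs in Ddit3/Trib3 cells, 893 were in 2 cells.

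Proteins that pull misfolded clients out of the ER were among the genes called higher. Herpud1, an ER membrane protein that assembles the ERAD complex, was at 528 CPM (519 to 536) in Ddit3/Trib3 cells and 366 CPM (351 to 381) in cells with none, a matched ratio of 1.46 (1.40 to 1.52). The median Ddit3/Trib3 cell had 6 UMIs of it (highest 30) and the median cell with none had 4 (highest 21), so single cells of the groups overlapped while the sums did not. Its ratio lay between 1.30 and 1.64 in the 6 bands. Syvn1, the ubiquitin ligase of the same complex (HRD1), was at 23.7 against 14.8 CPM (1.65, 1.32 to 2.05), and Sel1l, its scaffold, at 74.3 against 57.2 CPM (1.29, 1.15 to 1.45; above 1 in 5 of 6 bands). These were the 3 called of 25 measured genes of ERAD and translocation, whose median log2 ratio was 0.11. Edem1, which marks misfolded glycoproteins, was at 1.19 (1.02 to 1.39), and the translocon and signal peptidase genes stayed near 1, from Ssr4 at 0.966 (0.938 to 0.994) to Ssr3 at 1.12.

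Among 26 measured genes of ER folding, Hspa5, the main ER chaperone, was the 1 called, a share of 3.85% that is no more than the 4.01% of all genes. It stood at 990 CPM (978 to 1002) against 768 CPM (747 to 789), a ratio of 1.33 (1.29 to 1.37) that lay between 1.20 and 1.37 in all 6 bands. The median Ddit3/Trib3 cell had 12 UMIs (highest 47) and the median cell with none 8 (highest 33). The list's median log2 ratio was 0.13, and 24 of the 26 genes were above 1, as were 2912 of all 4085 genes. Hsp90b1, the ER member of the HSP90 family, had a ratio of 1.17 (1.13 to 1.22), Creld2 1.19 (1.09 to 1.30) and Manf, a secreted ER stress protein, 1.11 (1.07 to 1.15). Xbp1, the transcription factor activated by IRE1, had 1.1 (1.03 to 1.18) and Ern1, which encodes IRE1, 1.23 (0.993 to 1.52).

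Regulators of the integrated stress response had the highest median of the lists, 0.23 on the log2 scale, with 2 of 12 measured genes called. Atf4 itself was at 210 CPM (204 to 215) against 184 CPM (174 to 194), a ratio of 1.17 that exceeded 1 in all 6 bands without passing the threshold of 25%. Its activity is set largely by translation, which these counts do not measure. The called genes were Atf3, a partner factor, at 73.2 against 59.3 CPM (1.30, 1.16 to 1.45), and Cdkn1a, the cell cycle inhibitor p21, at 36.0 against 23.3 CPM (1.61, 1.35 to 1.92). Ppp1r15a (GADD34), which reverses eIF2α phosphorylation, had a ratio of 1.24 (1.1 to 1.40), Cebpb 1.21 (1.08 to 1.36) and Chac1, a glutathione-degrading enzyme, 1.18 (1.06 to 1.30). Nupr1 (1.05, 0.990 to 1.12) stayed near the median gene. The other 10 genes of the list had too few UMIs to be measured.

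Amino acid supply and tRNA charging followed with median log2 ratios of 0.17 and 0.14. Phgdh (1.37, 1.14 to 1.63) and Psph (1.27, 1.0 to 1.61) of serine synthesis, the mitochondrial enzyme Pck2 (1.26, 1.09 to 1.45) and the arginine and lysine transporter Slc7a1 (1.28, 1.06 to 1.54) were called among 12. Asns, which makes asparagine and is a textbook ATF4 target, was at 81.5 against 73.0 CPM (1.14, 1.03 to 1.26). Slc3a2, the shared subunit of several amino acid transporters, had a ratio of 0.999 (0.918 to 1.09). Of 18 genes of tRNA charging, the synthetases Iars (1.31, 1.08 to 1.60) and Hars (1.35, 1.1 to 1.67) were called.

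**Figure D2:**
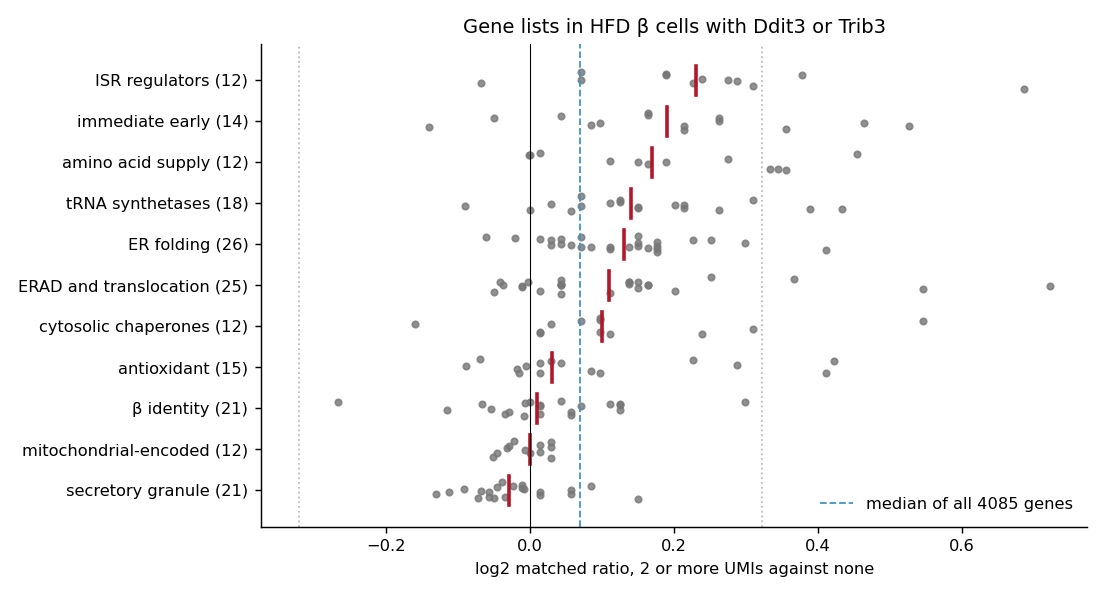
Matched log2 ratio of each measured gene (grey points) in HFD β cells with 2 or more Ddit3 plus Trib3 UMIs against cells with none, by gene list, with the number of genes in brackets. Red bars are list medians, from 0.23 for regulators of the integrated stress response (ISR) to -0.03 for secretory granule genes, the dashed blue line is the median of all 4085 genes at 0.07, and dotted grey lines mark 25% higher and 20% lower.

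Genes of the β cell itself were close to level. No gene was called among 21 of β identity (median log2 0.01) or 21 of the secretory granule (median -0.03). Mafa, the transcription factor of mature β cells, was at 181 CPM in Ddit3/Trib3 cells and 180 CPM in cells with none (1.03, 0.961 to 1.09). Slc2a2, the glucose transporter GLUT2, had a ratio of 1.05 (0.967 to 1.14) and Ucn3, another maturity marker, 0.923 (0.866 to 0.984). The islet amyloid gene Iapp was lower in all 6 bands by a few percent, and the granule protein Scg2 likewise (0.938, 0.921 to 0.955). The 12 measured mitochondrial-encoded genes had a median of -0.00 and lay between -0.05 and 0.03. Cck, the gene the study followed in obesity, had 28 UMIs in Ddit3/Trib3 cells and 5 in cells with none, too few to compare.

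Outside these pathways the metallothioneins Mt1 and Mt2, which bind zinc and copper, were called within the antioxidant list (median 0.03, 2 of 15 genes). Mt1 was at 1481 against 1124 CPM (1.34, 1.31 to 1.37), above 1 in 5 of 6 bands, the exception being 18000 to 20000 UMIs at 0.960. Immediate early genes, switched on within minutes of stimulation, had 3 of 14 called higher and a median of 0.19: the nuclear receptor Nr4a1 (1.44, 1.22 to 1.69), Ier2 (1.38, 1.24 to 1.55) and Egr1 (1.28, 1.17 to 1.40), whereas Fos was at 0.907 (0.852 to 0.966). Of 5 measured cell death genes none was called, and Mcl1, a survival protein, had the highest ratio (1.21, 1.04 to 1.40). Cytosolic chaperones had 1 called gene of 12, Dnajb1 (1.46, 1.28 to 1.67), and a median of 0.10. Obesity and immaturity genes had 3 measured members and a median of -0.12, with Dapl1 at 0.912 (0.868 to 0.959).

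Beyond the lists, the genes called higher and on the same side in every band were led by Fhl2, a LIM-domain cofactor (1.69, 1.32 to 2.16), and Nr4a2, an orphan nuclear receptor (1.65, 1.27 to 2.13). Nfkbia, the inhibitor of NF-κB, was at 88.4 against 60.9 CPM (1.48, 1.33 to 1.65). Asna1, which inserts tail-anchored proteins into the ER membrane (1.48, 1.22 to 1.79), the oxygen-sensing enzyme Egln1 (1.5, 1.21 to 1.85) and the RNA polymerase subunit Polr1c (1.5, 1.18 to 1.91) followed. Ccz1, Aff1, Ptpn2, Atxn2l, 2810474O19Rik and Nr4a1 lay between 1.44 and 1.49. In the other direction stood Sncb (β-synuclein; 0.736, 0.613 to 0.884), the neuronal adhesion gene Slitrk6 (0.737, 0.608 to 0.895), the co-chaperone Sugt1 (0.759, 0.649 to 0.887) and the leucine-degrading enzyme Ivd (0.780, 0.631 to 0.965). Apart from Nfkbia and Herpud1, these genes were seen in 17.8% to 33.3% of Ddit3/Trib3 cells.

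Several of these levels went step by step with the number of Ddit3 plus Trib3 UMIs. From cells with 0 through 1, 2, 3, 4 to 5 and 6 to 9 up to the 60 cells with 10 or more, Herpud1 was at 366, 414, 449, 479, 566, 669 and 838 CPM (778 to 902 at the top), without a step down. Hspa5 ran 768, 801, 870, 920, 1026, 1238 and 1504 CPM (1423 to 1588), and Sel1l from 57.2 to 106 CPM (85.0 to 130). Mt1 went over the same steps from 1124 to 2302 CPM (2202 to 2405). Atf4 moved less up to 6 to 9 UMIs (221 CPM, 206 to 238) and reached 304 CPM (268 to 343) at the top. Asns stayed between 73.0 and 83.1 CPM and Mafa between 174 and 191 CPM. Ins1 was lower at every step, from 164451 to 147031 CPM (matched ratio 0.893, 0.888 to 0.898, at 10 or more), and Ins2 was at 416832 CPM with 0 and 406085 CPM with 10 or more (0.967, 0.963 to 0.970). Ndufa4, a subunit of the respiratory chain, fell from 210 CPM (200 to 222) to 112 CPM (91.2 to 137). The top grade also had the deepest cells (median 14380 UMIs against 11097). Summed over the cells of a grade, Trib3 made up 17.8% of the pair's UMIs at 1 UMI and 5.66% at 10 or more. The top grade was thus chosen almost wholly by Ddit3.

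**Figure D3:**
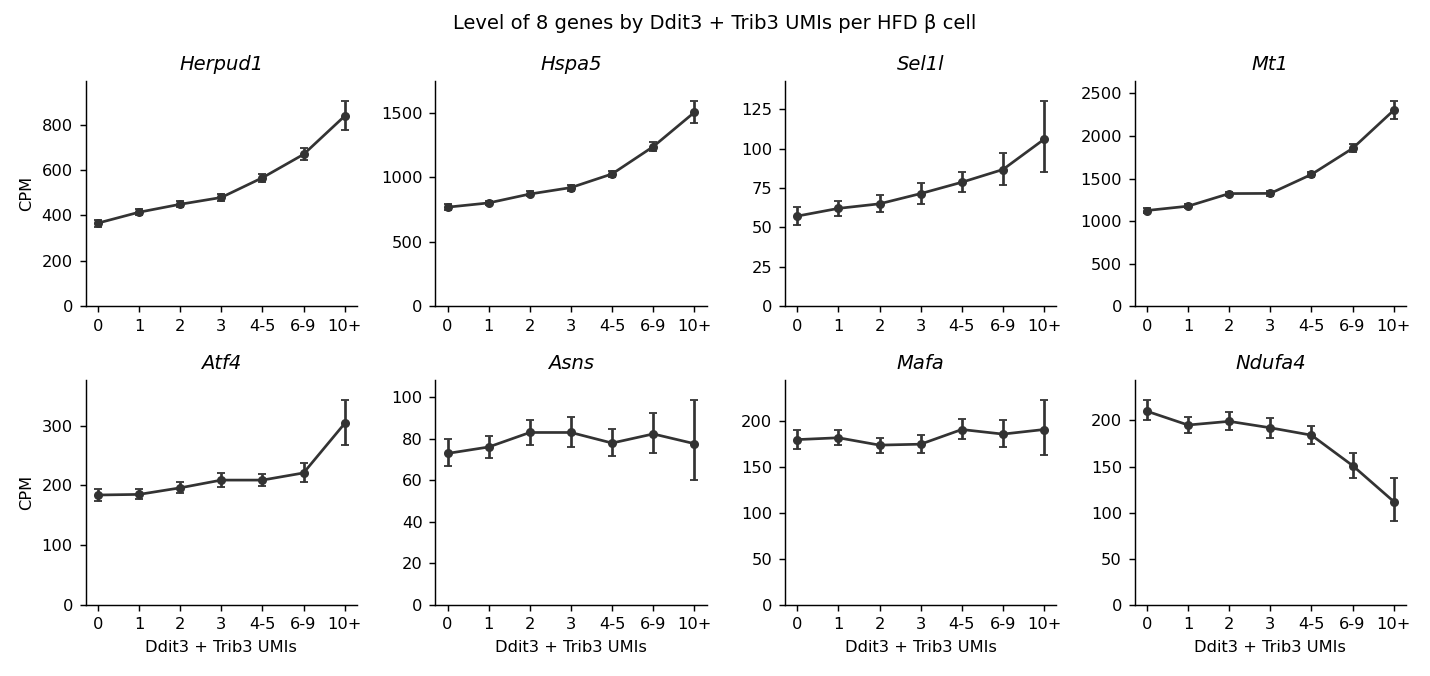
Level of 8 genes in CPM (vertical axes from 0) in gated HFD β cells by their number of Ddit3 plus Trib3 UMIs (horizontal axes, 567 to 60 cells per point), with exact Poisson 95% intervals. Herpud1 climbs from 366 to 838 CPM and Hspa5 from 768 to 1504 CPM, Asns and Mafa stay level, and Ndufa4 falls from 210 to 112 CPM.

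The 60 cells with 10 or more UMIs, a grade set apart after the data were seen, differed from cells with none in much more than these genes. Of 4085 genes 1216 (29.8%) were called higher and 391 (9.57%) lower, so counts within lists have to be read against that. Cytosolic chaperones had 11 of 12 genes called higher (median log2 0.54) and immediate early genes 10 of 14 (median 1.12). Dnajb1 was at 205 CPM (176 to 238) against 38.4 CPM, a ratio of 5.01 (4.12 to 6.11), and was seen in 70.0% of these cells against 27.7% of cells with none. Ier2 (3.59, 2.94 to 4.38), Junb (3.08) and Egr1 (2.92, 2.46 to 3.46), early transcription factors of the response to stimulation, were higher too. A few cells carried much of this: the top 3 of 60 held 43.1% of Hspa1b, 36.0% of Hspa1a and 26.9% of Ier2 UMIs, against 9.68% for Herpud1 and 10.3% for Hspa5.

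Ddit3 and Trib3, often read as a pair, were next used apart, a division chosen after the data were seen. Divided by Ddit3, β cells did not differ clearly in Trib3, while Ddit3 was somewhat higher in cells with 2 or more Trib3 UMIs. Cells with 2 or more Ddit3 UMIs (1776) had 25.4 CPM of Trib3 and cells without Ddit3 (755) had 26.6 CPM, a matched ratio of 0.972 (0.833 to 1.13). Along 0, 1, 2, 3, 4 and 5 or more Ddit3 UMIs, Trib3 was at 26.6, 21.2, 22.4, 20.9, 28.6 and 32.4 CPM (27.9 to 37.5 at the top). In reverse, Ddit3 was at 190 CPM in the 170 cells with 2 or more Trib3 UMIs and 163 CPM in the 2556 without (1.19, 1.08 to 1.31). In WT these ratios were 1.35 (0.720 to 2.54) and 0.910 (0.542 to 1.53).

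Taken over all bands, Herpud1 and Hspa5 were above 1 in both divisions. Herpud1 had a ratio of 1.41 (1.36 to 1.46) by Ddit3 and 1.29 (1.22 to 1.36) by Trib3, and Hspa5 1.31 (1.27 to 1.34) and 1.34 (1.28 to 1.39). In single bands Herpud1 lay between 1.33 and 1.49 by Ddit3. By Trib3 it lay between 0.925 and 1.57, the value below 1 being at 8000 to 10000 UMIs. The background was 3.57% of genes called higher and 0.171% lower by Ddit3, and 5.41% and 6.07% by Trib3. Over whole lists, by Ddit3, ERAD and translocation had 3 of 25 called and a median of 0.06, and ER folding 1 of 26 and 0.11, against 0.07 over all genes. By Trib3 these were 3 and 0.15, and 4 and 0.24, against 0.02. The 2 divisions used the same cells and share some of those at 0, so their values are given side by side and not compared by a test.

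The immediate early genes lay on opposite sides. By Ddit3, 6 of 14 were called higher and 0 lower (median log2 0.27). By Trib3, 0 were called higher and 11 lower (median -0.57). Fos was at 83.8 CPM in the 170 cells with 2 or more Trib3 UMIs and 207 CPM in cells without Trib3, a ratio of 0.406 (0.352 to 0.468), against 1.11 (1.05 to 1.18) by Ddit3. Egr1 was at 49.8 and 120 CPM (0.406, 0.338 to 0.488), against 1.52 (1.40 to 1.66) by Ddit3, and Jun had 0.607 (0.544 to 0.677) against 1.30 (1.23 to 1.37). The ratios by Trib3 were below 1 in all 6 bands for Fos (0.243 to 0.546), Egr1 (0.347 to 0.480) and Jun (0.5 to 0.699). Matching on Ddit3 UMIs as well as depth left them at 0.404, 0.407 and 0.590. By Ddit3, Fos lay between 0.891 and 1.45 in the bands, with 1 of 6 below 1, while Egr1 and Jun were above 1 in all 6. Atf3 was at 1.39 by Ddit3 and 0.835 (0.702 to 0.992) by Trib3.

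The levels followed the number of Trib3 UMIs. At 0, 1, 2 and 3 or more (2556, 701, 145 and 25 cells) Fos was at 207, 125, 89.7 and 50.5 CPM (29.9 to 79.7 at the top), and Egr1 at 120, 88.5, 54.1 and 25.2 CPM (11.5 to 47.9). The share of cells with any Fos UMI moved less, at 60.7%, 51.4%, 50.3% and 48.0%, so the difference was largely in how many UMIs a cell with Fos had. Along Ddit3, Egr1 ran from 81.8 to 152 CPM (142 to 162). Fos stayed between 170 and 189 CPM from 0 to 4 Ddit3 UMIs and was at 210 CPM (198 to 222) at 5 or more. Summed over all 17 immediate early genes, the median cell with 2 or more Trib3 UMIs had 1716 CPM (468 to 6637), the median cell without Trib3 1968 CPM (84.2 to 13786), and the ranges overlapped.

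**Figure D4:**
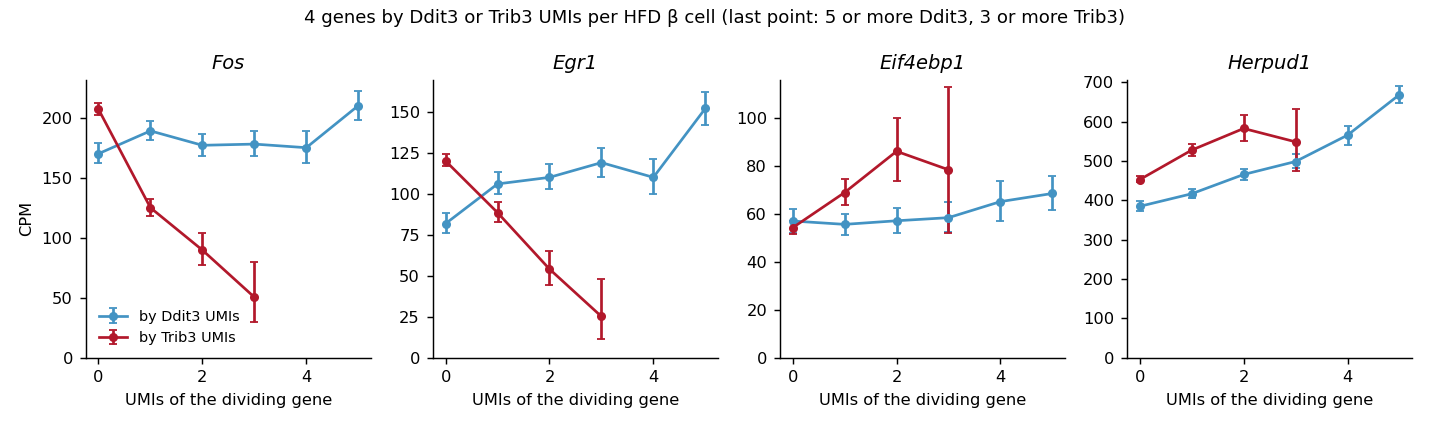
Level of Fos, Egr1, Eif4ebp1 and Herpud1 in CPM (vertical axes from 0) in gated HFD β cells by the UMIs of Ddit3 (blue) or Trib3 (red) per cell, with exact Poisson 95% intervals. The last blue point is 5 or more Ddit3 UMIs and the last red point is 3 or more Trib3 UMIs (25 cells). Fos and Egr1 fall along Trib3, from 207 to 50.5 and from 120 to 25.2 CPM, and are higher at 5 or more Ddit3 UMIs than at 0. Herpud1 is higher at the last point than at 0 UMIs of either gene.

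Other genes had a higher ratio by Trib3 than by Ddit3. Eif4ebp1, the translation inhibitor 4E-BP1 and an ATF4 target, was at 85.0 against 54.3 CPM by Trib3 (1.57, 1.35 to 1.82; 1.30 to 2.08 in the 6 bands) and had a ratio of 1.05 (0.948 to 1.17) by Ddit3. Tars, a tRNA synthetase (1.61, 1.31 to 1.97 against 1.1, 0.956 to 1.28), Derl3, an ERAD channel protein (1.58, 1.31 to 1.91 against 1.11), and Chac1 (1.28, 1.12 to 1.47 against 1.07) had the same order. They were not level along Ddit3: at 5 or more Ddit3 UMIs against 0, Derl3 was at 44.8 (39.4 to 50.7) and 33.3 CPM, Tars at 37.2 and 28.9 CPM and Eif4ebp1 at 68.6 and 57.1 CPM. By Trib3, 6 of 12 regulators of the integrated stress response were called higher and 1 lower, 7 of 18 tRNA charging genes higher and 1 lower, and 4 of 26 ER folding genes higher. By Ddit3 these were 2 and 0, 2 and 0, and 1. Among β identity genes 4 of 21 were called lower by Trib3 (median -0.18), with Nkx6-1 at 0.823 (0.722 to 0.938) and Slc2a2 at 0.818 (0.717 to 0.932) just short of it, and 0 by Ddit3 (median 0.04). The cells with 2 or more Trib3 UMIs were deeper than those without (median 13730 against 11932 UMIs), had the same median insulin share (57.9% and 57.8%) and a lower mitochondrial share (3.09% against 3.40%), and the mitochondrial-encoded genes had a median of -0.16 by Trib3.

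Cells outside the gate offered the same division in data that had no part in choosing the β cells described here. Among HFD cells above 20000 UMIs that passed the other gates, 86 had 2 or more Trib3 UMIs and 453 had none. Immediate early genes were called lower in 8 of 14 and higher in 0 (median -0.36; background 5.78% lower, 9.40% higher), with Fos at 0.483 (0.411 to 0.566), Egr1 at 0.701 (0.590 to 0.833) and Jun at 0.843 (0.754 to 0.942). WT cells above 20000 UMIs (94 and 1073) had 11 called lower and 3 higher (median -0.75; background 3.04% and 13.9%), with Fos at 0.479 (0.457 to 0.503), Egr1 at 0.532 (0.495 to 0.572) and Jun at 0.550 (0.515 to 0.587). In gated WT cells, where 50 had any Trib3 UMI and 262 had none, 9 were lower and 0 higher (median -0.38; background 11% lower, 20.4% higher) and Fos had 0.594 (0.537 to 0.657). Eif4ebp1 was on the high side in each, at 1.36 (1.14 to 1.62), 2.10 (1.85 to 2.40) and 2.12 (1.61 to 2.80), while Tars was not distinct in HFD cells above 20000 UMIs (1.05, 0.799 to 1.38). Divided by Ddit3 in the same way, HFD cells above 20000 UMIs (579 and 58) had 3 of 14 immediate early genes called higher and 0 lower (median 0.04; background 16.0% higher and 5.21% lower) and WT cells (1027 and 143) had 5 of 14 (median 0.22; background 8.08%).

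**Figure D5:**
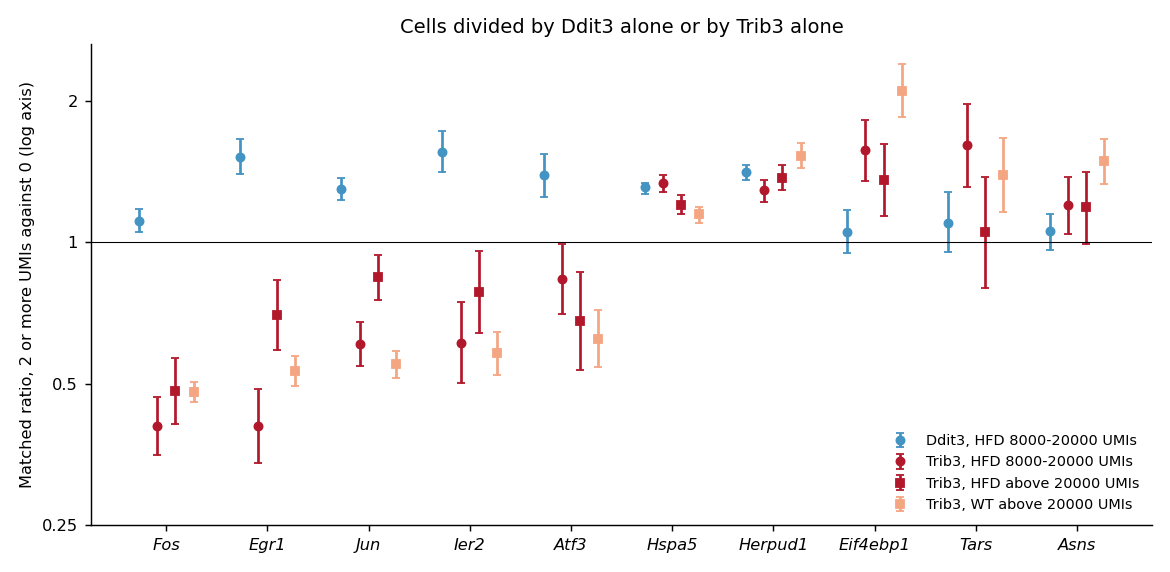
Matched ratio (log axis) of 10 genes in cells with 2 or more UMIs of Ddit3 (blue) or Trib3 (other colours) against cells with 0 of the same gene, with counting 95% intervals. Circles are gated HFD cells and squares are HFD (dark red) or WT (light orange) cells above 20000 UMIs. Fos, Egr1, Jun and Ier2 lie above 1 by Ddit3 and below 1 in all 3 divisions by Trib3, Herpud1 and Hspa5 lie above 1 in all 4.

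The contrast that defined the Ddit3/Trib3 cells was repeated in the WT library, which had no part in the rule. There 148 cells had 2 or more UMIs and 76 had none, so that 21.1% of genes were called higher and 8.69% lower and many ratios of that size are counting error. Herpud1 was on the same side, at 253 against 198 CPM (interval of the ratio 1.07 to 1.47), as were Syvn1 (1.92, 1.04 to 3.57), Nr4a2 (2.12, 1.21 to 3.71), Nfkbia (1.28, 1.07 to 1.53) and Mt1 (1.22, 1.17 to 1.29). All 15 genes named higher in HFD had a WT ratio above 1, as had 2529 of all 4084 genes in WT. The interval held 1 for 10 of the 15, among them Fhl2 (1.59, 0.948 to 2.67) and Cdkn1a (1.24, 0.895 to 1.70). Hspa5 had a ratio of 1.09 (0.991 to 1.20), below the interval in HFD, and ER folding genes had a median of 0.09 with 1 called higher and 1 lower. Regulators of the integrated stress response had 11 of 12 called higher and a median of 0.47, among them Nupr1 (1.82, 1.56 to 2.11), Cebpb (2.03, 1.42 to 2.90) and Chac1 (2.30, 1.47 to 3.59), against 1.05, 1.21 and 1.18 in HFD. WT cells above 20000 UMIs gave a larger set, 1066 with 2 or more UMIs and 124 with none (background 8.79% higher, 1.27% lower). There Herpud1 had 1.28 (1.18 to 1.39), Hspa5 1.04 (0.997 to 1.09), and ER folding a median of -0.03 with 0 of 26 called. ERAD and translocation had a median of 0.01 with 1 of 25 called, and regulators of the integrated stress response 0.34 with 7 of 12. HFD cells above 20000 UMIs (630 and 40; background 18.8% higher, 7.69% lower) had 3 of 26 ER folding genes called higher (median 0.20) and 4 of 12 regulators (median 0.30). Sncb, Slitrk6, Sugt1 and Ivd, lower in HFD, were at 1.04 to 1.40 in WT with intervals that held 1. The difference between the libraries was not tested, and their depth differed (median 17002 UMIs in WT, 12870 in HFD).

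Cells that the gates left out for an Aldh1a3 UMI had nearly the same share with 2 or more UMIs of the pair, without matching on depth. Aldh1a3 encodes an enzyme that marks β cells losing their mature state. Of 486 such HFD cells that passed the other gates, 285 had 2 or more UMIs (58.6%, 54.1 to 63.1), against 58.7% without Aldh1a3. The cells with Aldh1a3 were deeper (median 13284 against 12198 UMIs), and their share was not read within bands. In WT 2 cells had an Aldh1a3 UMI and 0 of them had 2 or more UMIs of the pair.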

How the data were processed

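Single-cell RNA libraries of pooled islets (1 WT, 1 HFD) were analysed. The authors deposited UMI counts for each gene in each barcode, not normalized, and the submitters' processing notes name Cell Ranger v3.0.2 and mm10. The HFD library held 94375138 UMIs and the WT library 73843674, and 9 barcodes occurred in both. Members and gene lists were chosen with earlier results of these data known. UMIs were summed over cells, divided by their UMIs other than Ddit3 and Trib3, and compared by Mantel-Haenszel ratios over 6 bands of 2000 UMIs with Greenland-Robins intervals; levels carry exact Poisson and shares exact Clopper-Pearson 95% intervals. Sums for Ddit3 and Trib3 themselves, and shares, used all UMIs. Reads, PCR and free RNA in droplets add error that intervals do not cover. Genes needed 500 UMIs over both groups.

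The named genes were at most 15 with the largest and 15 with the smallest ratio at least 25% higher or 20% lower and on the same side of 1 in every band, of which 4 were lower, plus list genes, Ddit3, Trib3, Ins1 and Ins2. Genes named outside this rule were chosen after their values were seen. Scrublet, run in scanpy v1.11.5 with its own threshold, marked 0 HFD barcodes and 1 WT barcode and was judged not to have worked, so no doublet was removed, and leaving out the 641 HFD barcodes of highest score is an alternative. Endothelial-like cells were those with at least 4 of 7 endothelial markers and insulin under 20% of UMIs. Divisions by Ddit3 or Trib3 alone, cells above 20000 UMIs (bands of 4000 UMIs) and the grade of 10 or more UMIs were added after seeing the data. Symbols came from the files, positions from GENCODE for mm10, and windows from RefSeq. Python v3.11.15, numpy v2.4.6, pandas v2.3.3 and scipy v1.17.1 were used, and the ratio and its interval were tested on simulated data. Other settings were tried for depth, bands, scaling, gates and gene minimum.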

Additional observations from a re-analysis of the deposited data

Results flagged for a closer look

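β cells above 20000 UMIs lay outside the gate, and no level of Ddit3 and Trib3 in them entered the comparison of Ddit3/Trib3 cells. In 755 such HFD cells that passed the other gates, the pair was at 161 CPM (155 to 166; median 23895 UMIs per cell, at most 20 per cell of the pair), and in 1392 WT cells at 95.4 CPM (92.8 to 98.0; median 35810 UMIs, at most 34 of the pair). The HFD value was flagged because these cells had not entered that comparison, and it lay above the WT value. The share of cells with 2 or more UMIs was 83.4% in HFD and 76.6% in WT, though the WT cells were deeper. The libraries differ in diet and preparation at once, which cannot be told apart.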

How the results depend on the processing

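Of the summary values and the genes recomputed under each setting, none whose interval lay off 0 changed direction, and the other called genes were not recomputed one by one. The share of gated cells with Ddit3 or Trib3 was 38.4% with 3 or more UMIs required, 83.5% with 1 or more, and 54.1% at 8000 to 15000 UMIs, the maximum in the study's methods. The count of genes higher was 108 with insulin and mitochondrial genes left out of the scale, 73 with the median of ratios, 58 with cells thinned to 8000 UMIs before they were divided, 104 at 8000 to 15000 UMIs, 1033 with at least 100 UMIs per gene and 2368 with at least 1 UMI in each group. The count of genes lower was 27 with 1 or more UMIs, then 24, 40, 2, 6, 300 and 2066 under the same 6 settings in that order. The last pairs rest on genes of few UMIs. The cause of the other changes was not tested. Medians of log2 ratios stayed at 0.16 to 0.26 for regulators of the integrated stress response, 0.10 to 0.17 for amino acid supply, 0.07 to 0.15 for tRNA charging, 0.06 to 0.14 for ER folding, 0.05 to 0.13 for ERAD, -0.06 to 0.02 for β identity and -0.10 to -0.01 for the granule, while that of all genes lay between 0.00 and 0.07. Immediate early genes stayed at 0.20 to 0.32 by Ddit3 and -0.64 to -0.56 by Trib3. Trib3 by Ddit3 ran from -0.11 to 0.10 and so changed sign around 0, and Ddit3 by Trib3 from 0.22 to 0.37. Herpud1 ran from 0.45 to 0.65, Hspa5 from 0.32 to 0.50 and Syvn1 from 0.60 to 0.85. Of values for single genes under another setting, 351 stayed within their counting interval, 21 moved beyond it, and Mafa, whose interval held no change, ran from -0.03 to 0.09 and so changed sign around 0. No paired analysis was possible because each group had 1 library, and for the same reason no library could be left out. Depth limits what was seen: with a median of 3 UMIs of the pair per Ddit3/Trib3 cell, many cells with none may hold the transcripts, and genes under 500 UMIs were not read.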

Other observations

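These genes were picked after their values were seen. The keratins Krt8 and Krt18, which pair into filaments of simple epithelia, were higher in Ddit3/Trib3 cells, at 563 against 450 CPM (1.31, 1.26 to 1.36) and 331 against 271 CPM (1.27, 1.20 to 1.33), both in all 6 bands. Krt8 had a ratio of 2.04 (1.87 to 2.22) in the 60 cells with 10 or more UMIs. The nuclear lamina gene Lmna was at 202 against 164 CPM (1.26, 1.18 to 1.34).

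Hmgcs1, an early enzyme of sterol synthesis, was at 100 against 76.1 CPM (1.38) and had a ratio of 2.89 (2.40 to 3.47) at 10 or more UMIs. Of 4 more enzymes looked at for that reason, Idi1 (1.33, 1.09 to 1.63) and Pmvk (1.28, 1.12 to 1.47) were called higher, while Fdps (1.22, 1.1 to 1.36) and Sqle (1.06, 0.945 to 1.18) were not, and no test of the pathway was made.

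Ndufa4 was lower in Ddit3/Trib3 cells in all 6 bands without passing the fold (0.850, 0.799 to 0.903), and had a ratio of 0.502 (0.406 to 0.621) at 10 or more UMIs. Klf2, a Krüppel-like transcription factor, had the lowest ratio of the 12 genes called lower (0.722, 0.604 to 0.862) but was not on the same side in every band. The DNA damage gene Gadd45a was higher by Trib3 (1.72, 1.35 to 2.18) and by Ddit3 (1.28, 1.06 to 1.54), whereas Gadd45g had 0.754 by Trib3 and 1.27 by Ddit3.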
